A study of Mus musculus with 6106 samples.

Results

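Heat shock proteins, the chaperonin TRiC and the DnaJ co-chaperones were followed in splenic regulatory T cells (Tregs) sorted by an Nr4a1 reporter. The members were the rows whose symbols start with Hsp or Dnaj and the 8 subunit genes of TRiC, without symbols that contain -ps. The table held 83 such rows of 23725 genes, and 60 of them had at least 20 unique molecular identifiers (UMIs, tags that count single captured transcripts) in the cells used. The whole table had 10113 genes at that minimum. The lowest members kept were Dnajc12 with 33 UMIs and Dnajc17 with 35, and the highest left out was Hspb1 with 13.

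Spleens of 10-month-old male mice on the B6 background were the source. All carried Nr4a1-Gfp, and Foxp3-Ires-Thy1.1 as the reporter of Foxp3. The mice of every group carried both reporters, and no other treatment was named. Live cells (DAPI-) that were TCRb+, CD4+ and Foxp3-Thy1.1+ were sorted by green fluorescence into GFPlow (0 to 20%), GFPmed (40 to 60%) and GFPhigh (80 to 100%). Signals of the T cell receptor (TCR) induce Nr4a1 quickly, and the bins therefore order cells by a reporter of recent TCR signalling. Each bin was 1 droplet library made by the inDrops protocol, with 0 replicates, and the labels give no number of mice. No test between bins was therefore made, and every interval covers counting error only.

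Chaperones bind unfolded proteins and help them reach or keep their shape. HSP70 proteins bind short exposed stretches and are driven by DnaJ proteins, which deliver clients and trigger ATP hydrolysis, and by HSP110 proteins, which exchange the nucleotide. HSP90 acts later on kinases and receptors, among them signalling proteins of T cells, while the ring-shaped chaperonins enclose their clients: HSP60 with its lid HSP10 in mitochondria, and TRiC in the cytosol, where actin and tubulin are its best known clients. Most of these genes are made in all cells, and a subset is induced by heat shock factor 1 after stress or by the unfolded protein response in the endoplasmic reticulum (ER).

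Of the deposited cells, 5435 of 6106 had at least 500 UMIs, and 1537 of these were GFPmed, 1775 GFPhigh and the rest GFPlow. Their UMIs summed to between 2270376 and 2512277 per bin, and the median per cell was 1085 in GFPlow and 1129 in GFPhigh, with deeper cells in GFPmed. All 8 Treg markers were measured, at a summed 2857, 2726 and 3419 UPM (UMIs per 1000000 UMIs of the bin). Erythroid markers were at 1399, 3002 and 1051 UPM, plasma cell markers at 142.04, 83.99 and 348.8, and myeloid markers at 75.1, 224.1 and 81.5. Cells with at least 2 UMIs of such other lineages made up 6.45%, 10.9% and 9.07% of the bins. Of 6010 distinct cell barcodes, 95 occurred in more than 1 library (1.58%). Leaving those cells out changed no direction of a family ratio.

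Regulatory sequence of a few members is shown first, because the mitochondrial pair and 3 of the ER members described below carry letters of known stress elements close to their starts. Of the 60 members, 48 had a promoter of 300 bases (250 before to 50 after the start) in the RefSeq table for GRCm38.p6. The heat shock element was searched as GAANNTTC or TTCNNGAA, and 12 of the 48 (25%) had at least 1, beside 16.97% of all 27025 genes of that table. Runs of at least 3 alternating GAA and TTC units with 2 bases between them were present for 4 members (8.33%), Hspd1, Hspe1, Hsph1 and Dnajb6, beside 0.662% of all genes. A run of this kind also holds both shorter motifs. The ER stress element, CCAAT followed after 9 bases by CCACG on either strand, was found for 3 members (6.25%), Hspa5, Hsp90b1 and Dnajc3, beside 0.137% of all genes. Capitals mark the units or the CCAAT and CCACG boxes, and each stretch is written along the strand of its gene.
Hspe1, chr1:55088053-55088082, plus strand: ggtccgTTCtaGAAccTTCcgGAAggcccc
Hsph1, chr5:149636280-149636308, minus strand: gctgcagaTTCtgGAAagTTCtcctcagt
Dnajb6, chr5:29735844-29735872, plus strand: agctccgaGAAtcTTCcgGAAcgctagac
Hspa5, chr2:34772020-34772048, plus strand: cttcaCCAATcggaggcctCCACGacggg
Hsp90b1, chr10:86705633-86705661, minus strand: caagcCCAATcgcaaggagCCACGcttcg
Hsp90b1, chr10:86705528-86705556, minus strand: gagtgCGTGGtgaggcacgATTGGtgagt
Dnajc3, chr14:118937822-118937850, plus strand: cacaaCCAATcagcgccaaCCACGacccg
The Hspe1 stretch, with 4 units in a row, lies 71 bases before the Hspe1 start and 126 before a start of Hspd1. The pair is transcribed in opposite directions and their windows shared 95% of their bases, so the same stretch read on the minus strand belongs to Hspd1. In GENCODE M21 it overlaps annotated untranslated exon sequence of Hspd1. The Hsph1 run lies after a start and overlaps annotated untranslated exon sequence of Hsph1. The Hspa5 and Dnajb6 elements overlap annotated untranslated exon sequence of their genes. The Dnajb6 element also overlaps annotated coding sequence of another gene, Gm5129. No annotated exon covers the elements of Hsp90b1 and Dnajc3. A match describes the letters and does not show that a factor binds there.

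Together the 60 members gave 6966, 6673 and 7905 UPM from the lowest to the highest bin. Differences are given as log2 ratios of such levels, each with its 95% interval. The sum was higher in GFPhigh than in GFPlow by 0.18 (0.15 to 0.21) and than in GFPmed by 0.24 (0.21 to 0.27), and GFPmed stood slightly below GFPlow (-0.06, from -0.09 to -0.03). By the median over members, GFPhigh over GFPlow was 0.11, beside 0.05 over all genes with at least 20 UMIs. The corresponding medians were -0.10 and -0.03 for GFPmed over GFPlow, and 0.17 and 0.08 for GFPhigh over GFPmed. Of the 60 members, 34 had their highest level in GFPhigh (56.7%, beside 40.7% of all genes), 21 in GFPlow (35%, beside 33.4%) and 5 in GFPmed (8.33%, beside 25.9%). The order GFPlow, GFPmed, GFPhigh ran upward for 17 members (28.3%, beside 20.9% of all genes) and downward for 10 (16.7%, beside 15.8%).

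**Figure D1:**
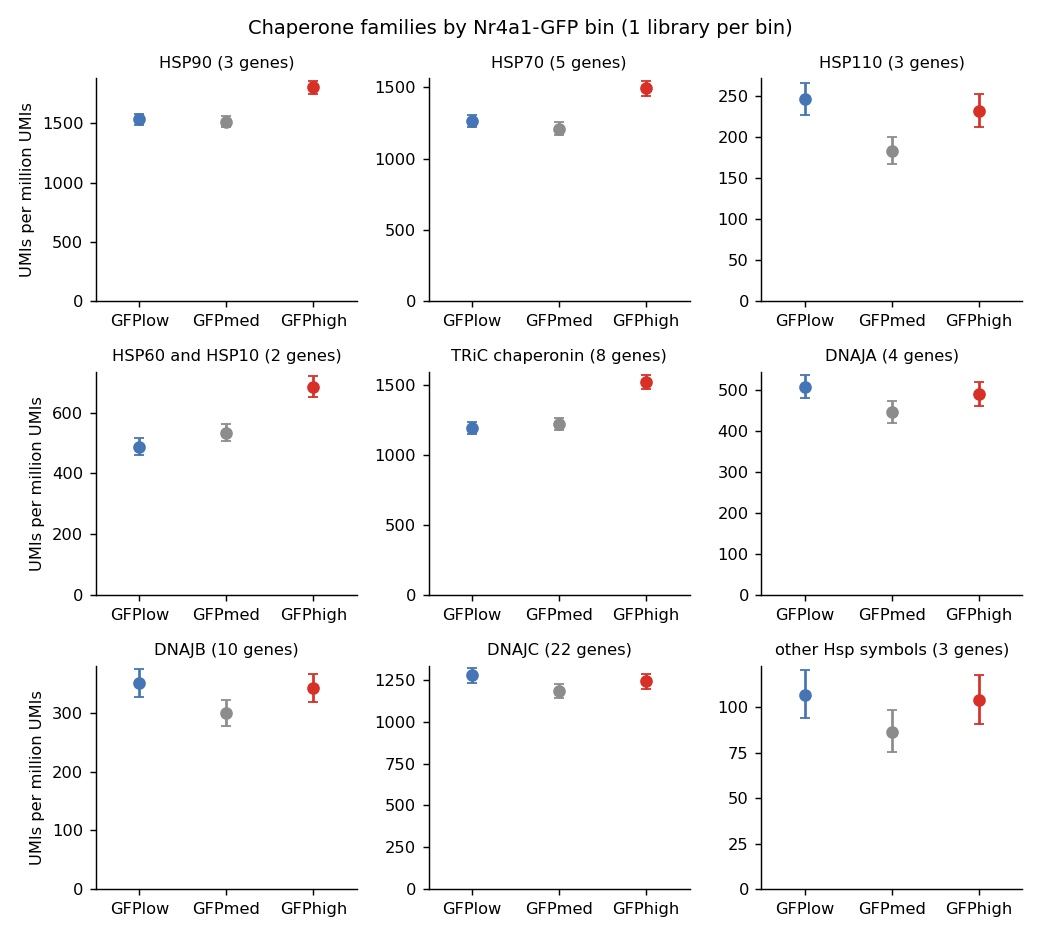
Level of each chaperone family in the 3 bins, in UPM (each axis starts at 0). Points are sums over the genes of a family in 1 library and bars are exact 95% Poisson intervals; HSP60 and HSP10 go from 486 to 685 UPM and TRiC from 1192 to 1515, while the DNAJ families and HSP110 are lowest in GFPmed.

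The share of members past 1.5-fold lay near or below that of all genes in most comparisons. At least 1.5-fold higher in GFPhigh than in GFPlow were 7 of 60 members, beside 12.8% of all genes, and at least 1.5-fold lower were 4, beside 8.45%. Of the 45 members with at least 100 UMIs, 3 were higher (Hspd1, Cct5 and Hspa13; background 7.34%) and 1 was lower (Dnajc11; background 5.25%). Between GFPmed and GFPlow, 3 members were past this fold upward (background 8.63%) and 4 downward (8.23%). With at least 100 UMIs these counts were 0 (3.57%) and 3 (Dnajb9, Dnajc11 and Dnajc15; 4.83%). From GFPmed to GFPhigh, 6 members were higher (background 10.8%) and 2 lower (6.87%), and with at least 100 UMIs 3 were higher (Hspd1, Cct8 and Hspa13; 6.46%) and 0 lower (2.96%). By interval, a count that also depends on how many UMIs a gene has, the log2 ratio of GFPhigh over GFPmed lay wholly above 0 for 19 of 60 members, beside 14.3% of all genes, and below 0 for 0 members, beside 6.76%. For GFPhigh over GFPlow it lay above 0 for 17 members and below 0 for 7, beside 13.6% and 9.74% of all genes.

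**Figure D2:**
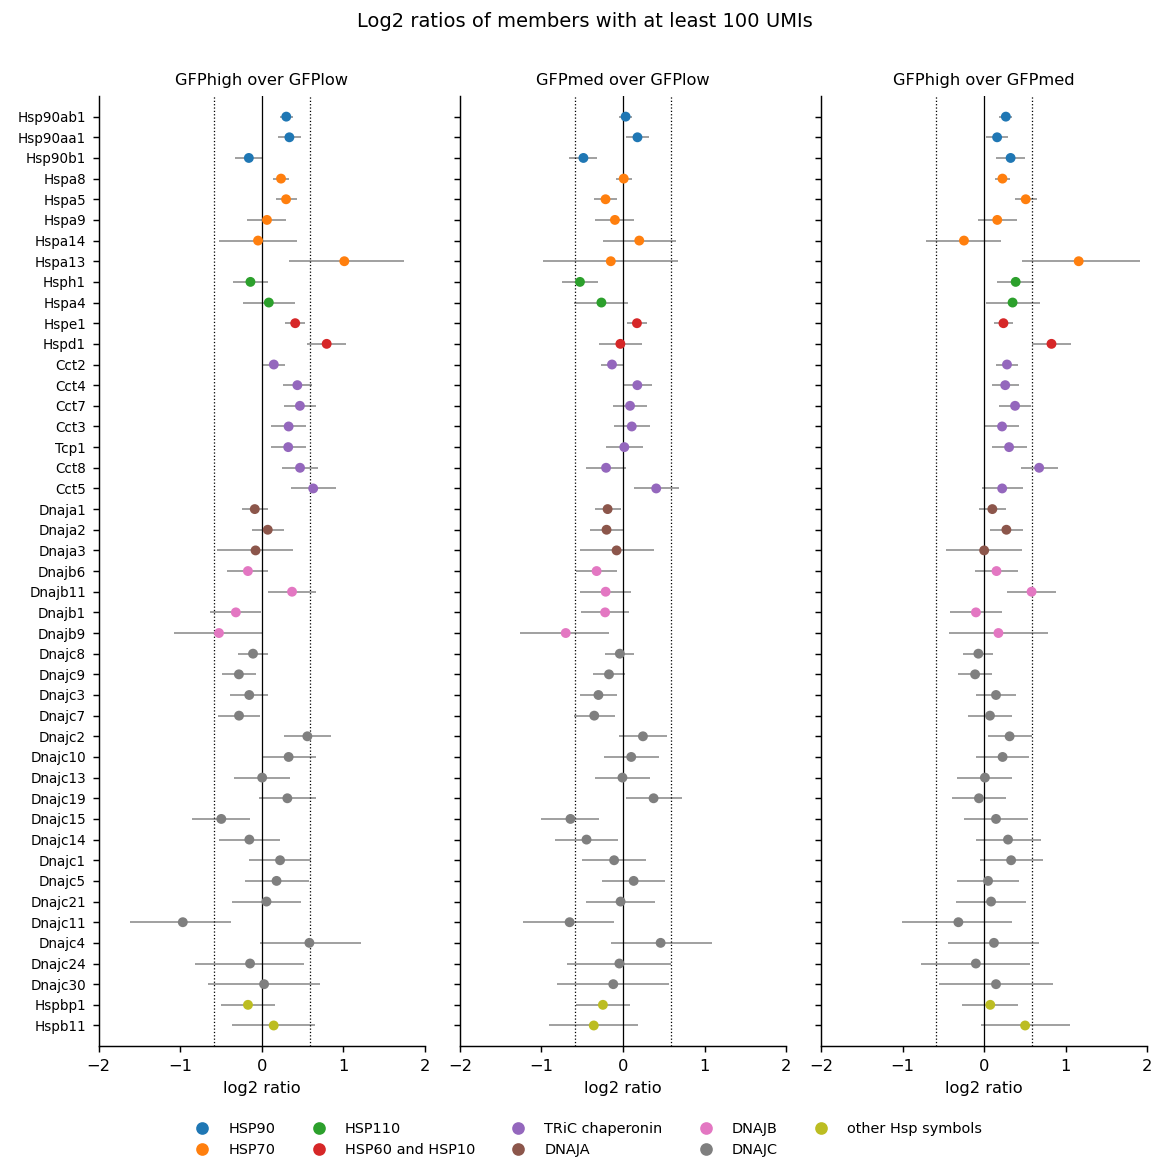
Log2 ratios of the 45 members with at least 100 UMIs for the 3 pairs of bins, by family (colour) and falling abundance within a family. Bars are 95% conditional binomial intervals, the solid line marks no difference and the dotted lines 1.5-fold; the TRiC subunits lie right of 0 in GFPhigh over GFPlow, and Hspd1 and Hspa13 lie past the right dotted line.

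Levels are compared below between bins and not between genes. HSP90 summed to 1531, 1514 and 1801 UPM in GFPlow, GFPmed and GFPhigh. Its constitutive cytosolic form Hsp90ab1 gave 955.7, 977.2 and 1176 UPM, so that GFPhigh alone stood apart (0.30 over GFPlow, from 0.22 to 0.38). The stress-inducible cytosolic form Hsp90aa1 was graded, at 301.3, 340.7 and 380.6 UPM, and its ratio of GFPhigh over GFPlow was 0.34 (0.19 to 0.48), but after thinning to 500 UMIs GFPmed over GFPlow was -0.012. Hsp90b1, the ER form that folds integrins and Toll-like receptors, went another way: 274.2, 195.8 and 245.3 UPM, lowest in GFPmed (-0.49 against GFPlow, from -0.66 to -0.32). The family sum therefore joins a cytosolic pair that was highest in GFPhigh with an ER gene whose level was highest in GFPlow. For Hsp90b1 the interval of GFPhigh over GFPlow held 0.

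Of 11 HSP70 rows, 5 were kept, and their sum was 1263, 1211 and 1492.3 UPM. Hspa8, the constitutive cytosolic HSP70, was at 716.4, 720.9 and 842.6 UPM and higher in GFPhigh than in GFPlow by 0.23 (0.14 to 0.33). The ER member Hspa5 (BiP), a main target of the unfolded protein response, was at 381.0, 328.4 and 467.8 UPM. It was lower in GFPmed than in GFPlow (-0.21) and higher in GFPhigh than in either other bin (0.30 over GFPlow and 0.51 over GFPmed). Hspa9, the mitochondrial HSP70, hardly varied, at 121.1, 113.0 and 126.4 UPM, with intervals that held 0 for all 3 pairs. Hspa13, a rare HSP70-like protein of the microsomal compartment with little more than 100 UMIs in all, was at 11.5, 10.3 and 23.3 UPM, or 1.01 higher in GFPhigh than in GFPlow (0.34 to 1.74). This ratio was 2.15 in cells under 1000 UMIs and 0.94 in cells of 1000 to under 2000. In cells of at least 2000 it was -1.42 (-3.54 to 0.70), on 5 UMIs each in GFPlow and GFPhigh. Hspa14, which works at the ribosome, was at 33.3, 38.2 and 32.2 UPM.

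The strongly heat-inducible HSP70 genes were nearly absent. Hspa1a had 0 UMIs in any bin, a count that allows any level up to a limit of 1.19 to 1.32 UPM, depending on the bin. Hspa1b had 8 UMIs. The pair are near-identical copies whose reads the counting may have split or dropped, so these values are uncertain. No small heat shock protein gene reached the minimum: Hspb1 had 13 UMIs and Hspb6 had 12.

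The exchange factors of the HSP110 family were lowest in GFPmed, at 245.9, 183.1 and 231.7 UPM (GFPmed over GFPlow -0.43, from -0.60 to -0.25). Hsph1 accounted for most of it, with 167.1, 115.8 and 151.5 UPM, and its ratio of GFPmed over GFPlow was -0.53 (-0.75 to -0.31). Hspa4 was also lowest in GFPmed, at 69.4, 57.7 and 73.6 UPM, but its interval against GFPlow held 0. Hspa4l had 62 UMIs, with 9.44, 9.55 and 6.61 UPM. The low level in GFPmed depended on depth per cell. In cells under 1000, of 1000 to under 2000 and of at least 2000 UMIs, HSP110 gave -0.80, -0.57 and 0.10 for GFPmed over GFPlow. Hsph1 gave -1.46, -0.67 and -0.02. In cells of at least 2000 UMIs HSP110 was lowest in GFPlow, at 194.9, 211.5 and 310.5 UPM.

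In all cells without thinning, the mitochondrial chaperonin showed the largest family difference between the outer bins; after thinning to 500 UMIs its ratio was 0.26 and that of HSP110 -0.29. Hspd1 (HSP60, the folding chamber) and Hspe1 (HSP10, its lid) summed to 486.5, 533.4 and 684.9 UPM, and GFPhigh exceeded GFPlow by 0.49 (0.38 to 0.60). Hspe1 was graded at 390.0, 439.0 and 517.5 UPM. Hspd1 was level in the lower bins, at 96.5 and 94.3 UPM, and 1.73-fold above GFPlow in GFPhigh, at 167.4 UPM (0.79, from 0.56 to 1.04). For GFPmed over GFPlow the ratios of the 2 genes were 0.17 (0.04 to 0.30) for Hspe1 and -0.03 (-0.30 to 0.23) for Hspd1, with intervals that overlap.

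The TRiC subunits were nearly all higher in GFPhigh than in GFPlow. Their sum was 1192, 1216 and 1515 UPM, with GFPhigh over GFPlow at 0.35 (0.27 to 0.42) and GFPmed over GFPlow at 0.03 (-0.05 to 0.10). For 7 of 8 subunits the level in GFPhigh was above that in GFPlow with an interval above 0 in all cells. In cells of 1000 to under 2000 UMIs Cct2 stood at -0.0042 (-0.19 to 0.18). There Tcp1 gave 0.16 (-0.13 to 0.45) and Cct5 gave 0.21 (-0.16 to 0.57). Intervals of Cct3, Cct4, Cct7 and Cct8 lay above 0 in that class. In all cells the 7 ratios ran from Cct2 at 0.15 (357.6, 325.6 and 395.5 UPM) to Cct5 at 0.63 (0.36 to 0.90). Between them were Tcp1 at 0.32, Cct3 at 0.33, Cct4 at 0.43, and Cct7 and Cct8 at 0.47. Cct5 was graded, with 103.5 UPM in GFPmed and 120.7 in GFPhigh, which lay 0.41 and 0.63 above GFPlow on the log2 scale. Cct8 instead dipped in GFPmed, at 126.4, 109.5 and 174.9 UPM, and was 0.67 higher in GFPhigh than there. Cct6a had 55 UMIs in all (8.62, 8.36 and 5.73 UPM), a count that is uncertain because the annotation used for counting is not given. Its interval ran from -1.71 to 0.47, so its direction was not detectable at this depth.

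The remaining Hsp symbols are not chaperones of these classes. Hspbp1, an exchange factor that inhibits HSP70, was at 68.97, 58.1 and 61.2 UPM, Hspb11 (a cilium transport protein) at 27.1, 21.1 and 29.9, and Hspbap1 at 10.7, 7.16 and 12.8.

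The DnaJ families differed little between GFPlow and GFPhigh. DNAJA summed to 509.5, 446.2 and 490.7 UPM, DNAJB to 351.8, 300.1 and 343.1, and DNAJC to 1279, 1183 and 1242. All 3 sums were lower in GFPmed than in GFPlow, with log2 ratios of -0.19 (-0.31 to -0.07), -0.23 (-0.37 to -0.09) and -0.11 (-0.18 to -0.04). These ratios depended on depth per cell. In cells under 1000, of 1000 to under 2000 and of at least 2000 UMIs, DNAJA gave -0.13, -0.11 and 0.04. Each of these intervals held 0. In the same classes DNAJB gave -0.17, -0.30 and -0.0019, and DNAJC gave -0.26, -0.05 and -0.01. Dnaja1, the main cytosolic DNAJA partner of HSP70, was at 280.4, 245.99 and 263.8 UPM, and the related Dnaja2 at 178.6, 155.2 and 187.6. Dnaja3, which acts in mitochondria, was flat at 34.9, 33.04 and 33.03 UPM. Dnaja4 ran downward at 15.6, 11.9 and 6.17 UPM, on 82 UMIs.

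Among the DNAJB members the heat-inducible HSP70 partner Dnajb1 was at 82.5, 70.9 and 66.1 UPM, with GFPhigh over GFPlow at -0.32 (-0.64 to -0.01). This ratio was -0.83 in cells under 1000 UMIs. It was -0.15 (-0.55 to 0.24) in cells of 1000 to under 2000 and -0.06 (-0.99 to 1.02) in deeper cells. Dnajb6, which holds back protein aggregation, was at 121.1, 96.7 and 107.5 UPM. The ER members diverged. Dnajb11, a partner of BiP, was highest in GFPhigh at 74.3, 64.1 and 96.02 UPM, whereas Dnajb9, another BiP partner, was highest in GFPlow at 31.2, 19.1 and 21.6 UPM. Dnajb2, with 12.7, 11.9 and 14.1 UPM, and Dnajb4, with 8.21, 13.9 and 13.7 UPM, were rarer.

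DNAJC, the most varied family, held members on both sides. Dnajc2, a ribosome-bound partner of Hspa14, was graded upward at 73.9, 87.6 and 108.8 UPM (0.56, from 0.28 to 0.84). Dnajc8, which is found with the splicing machinery, was at 214.3, 208.6 and 198.6 UPM, and Dnajc9, a histone chaperone, at 184.3, 163.6 and 151.5 UPM. Both were in downward order. Dnajc7, an HSP70 and HSP90 co-chaperone, was at 121.5, 95.1 and 100.0 UPM. Dnajc11, which belongs to a complex that joins the mitochondrial membranes, ran from 29.6 through 18.7 to 14.98 UPM (-0.97, from -1.61 to -0.37). Dnajc15, a brake on respiratory complex I, was at 71.02, 45.4 and 50.2 UPM and lower in both other bins than in GFPlow. Its ratio of GFPhigh over GFPlow was -1.12 in cells under 1000 UMIs and -0.47 in cells of 1000 to under 2000. In cells of at least 2000 UMIs it was 0.17 (-0.81 to 1.34). Dnajc10, an ER reductase, was at 57.9, 62.1 and 72.7 UPM. Dnajc19, a part of the mitochondrial import motor that was picked for contrast after its values were seen, was at 52.1, 67.7 and 64.7 UPM. Of 8 mitochondrial members, also grouped after their values were seen, 5 were higher in GFPhigh than in GFPlow, near the 54.9% of all genes.

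A set of 8 ER members (Hspa5, Hsp90b1, Hspa13, Dnajb9, Dnajb11, Dnajc1, Dnajc3 and Dnajc10) was grouped after their values were seen. Other kept members sit in the ER membrane and were not in this set. Among them, Dnajb14, Dnajc18 and Dnajc25 rose from GFPlow through GFPmed to GFPhigh, Dnajb12 was highest in GFPmed and Dnajc14 was highest in GFPlow. The sum of the 8 was 1018, 837.5 and 1108 UPM, lowest in GFPmed (-0.28 against GFPlow, from -0.37 to -0.20). Higher in GFPmed than in GFPlow was 1 of 8, beside 46.8% of all genes, and higher in GFPhigh than in GFPmed were 8 of 8, beside 58.5%. The carriers of the ER stress element printed above were all lowest in GFPmed but differed in their highest bin. Hspa5 was highest in GFPhigh, while Hsp90b1 and Dnajc3 (140.8, 114.2 and 126.4 UPM), a lumenal co-chaperone, were highest in GFPlow. The interval of GFPhigh over GFPlow held 0 for Hsp90b1. For Dnajc3 this ratio was -0.64 in cells under 1000 UMIs, -0.01 in cells of 1000 to under 2000 and 0.21 in cells of at least 2000. Plasma cell markers, from a cell type rich in ER chaperones, were also lowest in GFPmed and highest in GFPhigh (above). Without all cells that held other lineage markers, GFPhigh over GFPlow was 0.23 for Hspa5 and GFPmed over GFPlow was -0.29, and for Hsp90b1 these were -0.17 and -0.47.

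The difference between GFPhigh and GFPlow depended on the depth of the cells compared. In cells under 1000 UMIs the sum of all members was 7181 UPM in GFPlow and 7185 in GFPhigh, a log2 ratio of 0.00 (-0.06 to 0.06). It was 0.13 (0.09 to 0.17) in cells of 1000 to under 2000 UMIs and 0.45 (0.37 to 0.54) in cells of at least 2000, a class that held 3.91%, 26.4% and 11.2% of the cells from the lowest to the highest bin. For HSP90 the 3 ratios were -0.12, 0.17 and 0.55, for HSP60 and HSP10 0.24, 0.26 and 1.254, and for HSP110 -0.31, -0.25 and 0.66. The TRiC sum was the steadiest, at 0.40, 0.25 and 0.42, each with an interval above 0. Single subunits were less steady. Tcp1 gave 0.82, 0.16 and -0.22, and Cct3 gave -0.10, 0.37 and 0.63, where the intervals of both negative values held 0. Cct4, Cct5, Cct7 and Cct8 had ratios above 0 in all 3 classes, although not every interval lay above 0. Hspd1 gave 0.32 (-0.18 to 0.81), 0.61 (0.29 to 0.93) and 1.89 (1.11 to 2.88).

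Without the cells of 2000 UMIs or more, an alternative added after seeing the data, GFPhigh over GFPlow was 0.09 for all members, 0.08 for HSP90, 0.25 for HSP60 and HSP10, 0.52 for Hspd1 and -0.27 for HSP110. Thinning every cell to 500 UMIs gave 0.12, 0.14, 0.26, 0.52 and -0.29 in the same order, and 0.08 for Hspa5. Erythroid markers were highest in the deepest class of each bin, at 12581, 6960 and 4394 UPM in GFPlow, GFPmed and GFPhigh, and plasma cell markers there were at 405, 78.7 and 1064 UPM, which in GFPmed was the lowest of the 3 classes. After cells with other lineage markers were left out, the ratio in the deepest class was 0.45 (0.35 to 0.55) for all members, 0.53 for HSP90 and 1.05 for HSP60 and HSP10.

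**Figure D3:**
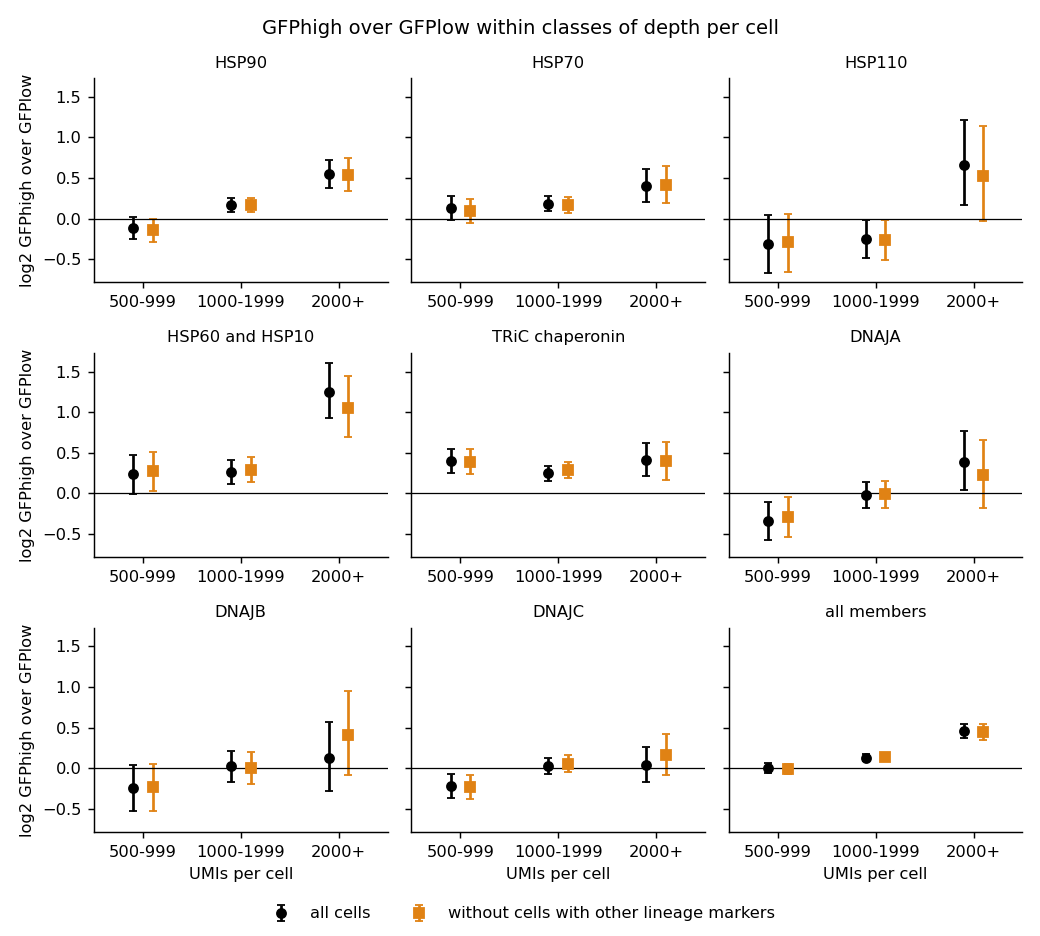
Log2 ratio of GFPhigh over GFPlow within 3 classes of UMIs per cell (split at 1000 and 2000), for all cells (circles) and without cells holding at least 2 UMIs of other lineage markers (squares). Bars are 95% intervals; HSP90 goes from -0.12 in the shallowest to 0.55 in the deepest cells, while TRiC stays between 0.25 and 0.42.

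Within each library, cells were also compared by gates on genes outside the members. Cells with a UMI of an early TCR response gene (Tnfrsf9, Egr2, Egr3, Cd83, Nr4a2, Nr4a3, Tnfrsf4, Tnfrsf18, Nfkbid or Penk) after thinning made up 15.0%, 20.0% and 34.6% of GFPlow, GFPmed and GFPhigh. Their summed chaperone level was above that of the other cells of the same library in each bin: 7603 against 6857 UPM in GFPlow, 7245 against 6528 in GFPmed and 8692 against 7473 in GFPhigh. These are log2 ratios of 0.15 (0.09 to 0.21), 0.15 (0.10 to 0.20) and 0.22 (0.17 to 0.26). Median depth inside and outside the gate was close, at 1066 and 1088 UMIs in GFPlow, 1581 and 1534 in GFPmed, and 1131 and 1124 in GFPhigh.

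Of single genes, Hspa5 was higher inside this gate in every bin. It was at 465 UPM inside and 367 outside the gate in GFPlow, 441 and 300 in GFPmed, and 641 and 373 in GFPhigh, where the log2 ratio was 0.78 (0.61 to 0.96). Hsph1 was higher inside by 0.21, 0.41 and 0.56, and the interval cleared 0 in GFPhigh alone. Hspd1 was at 98.01 and 96.2 UPM inside and outside in GFPlow, 106 and 91.3 in GFPmed, and 238.5 and 128.3 in GFPhigh (0.89, from 0.60 to 1.19). Hspa8 gave 0.06, 0.00 and -0.01. TRiC gave 0.03, 0.11 and 0.13, with an interval above 0 in GFPhigh (0.03 to 0.23). Whether a gate ratio differs between bins was not tested.

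The comparison of bins was repeated in the cells outside the TCR gate. There GFPhigh over GFPlow was 0.30 (0.22 to 0.39) for TRiC and 0.45 (0.31 to 0.58) for HSP60 and HSP10, beside 0.40 (0.25 to 0.56) and 0.39 (0.16 to 0.62) inside it. For HSP90 it was 0.17 outside and 0.22 inside the gate. For HSP110 it was -0.30 (-0.52 to -0.09) outside and 0.16 (-0.18 to 0.53) inside. For the ER members it was -0.03 (-0.12 to 0.07) outside and 0.21 (0.05 to 0.38) inside.

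Effector gene-positive cells, with at least 2 UMIs of genes such as S100a4, Ccr2 and Itgb1, made up 17.3%, 7.42% and 4.85% of the bins. HSP60 and HSP10 were lower inside this gate, at 362 against 512 UPM in GFPlow (-0.50, from -0.76 to -0.25) and 467 against 696 in GFPhigh (-0.56, from -1.01 to -0.17), with -0.25 (-0.59 to 0.07) in GFPmed. ER members were higher inside it in all bins, by 0.19 (0.05 to 0.34), 0.47 (0.25 to 0.68) and 0.46 (0.22 to 0.69). In cells with mitotic genes (6.59%, 6.57% and 6.31%), HSP60 and HSP10 had no common direction over the bins. They were lower inside in GFPlow (-0.60) and nearer to 0 in GFPmed (0.24) and GFPhigh (-0.27), where both intervals held 0. Hsp90b1 was higher in mitotic cells of each bin, by 0.54, 0.50 and 0.55.

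**Figure D4:**
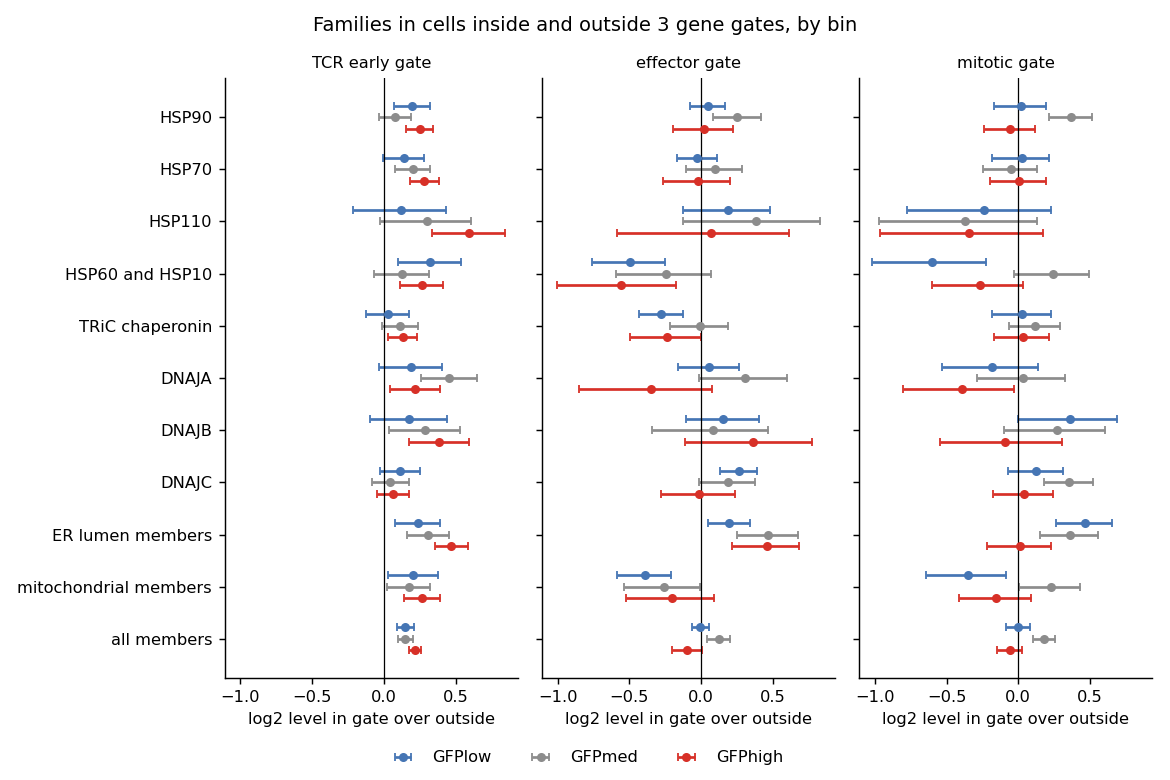
Log2 ratio of the level in cells inside a gate over that in the other cells of the same library, for 3 gates and 3 bins; bars are 95% intervals. All members together lie right of 0 in the TCR early gate (0.15, 0.15 and 0.22), the ER members lie right of 0 in the TCR and effector gates, and HSP60 and HSP10 lie left of 0 in the effector gate.

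Variation from cell to cell was read from thinned counts. After thinning to 500 UMIs, at least 1 HSP90 UMI was found in 50.4%, 48.02% and 51.0% of cells (74.5%, 78.3% and 71.5% without thinning), and Hspd1 in 4.80%, 5.33% and 6.76%. Nearly all cell types make these genes, so no cell class served as a background for these shares. The variance of thinned counts over their mean was between 1.21 and 1.37 for HSP90, and 1.93, 1.38 and 1.67 for Hsph1, all above the value of 1 that a pure counting process gives. Across cells of a bin, the correlation of 2 families' thinned sums ranged from -0.05 to 0.15 over 21 pairs of families, with a median of 0.01, and such weak values in sparse counts are no finding.

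Partner genes outside the families were read from 6 lists, and their counts stand beside 54.9% of all genes higher in GFPhigh than in GFPlow and 46.8% higher in GFPmed than in GFPlow. Of 27 measured cochaperones of HSP70 and HSP90, 14 were higher in GFPhigh than in GFPlow and 13 lower (median 0.04, beside 0.05 over all genes). Their largest differences were St13, the HSP70-interacting protein Hip, at 58.7, 79.6 and 96.5 UPM (0.71), Bag4 (0.63) and Ttc1 (0.49). Heat shock factors were few: Hsf1, the main regulator of heat-inducible chaperones, was at 31.6, 30.7 and 28.6 UPM, and its binding protein Hsbp1 at 121.1, 122.996 and 149.8. Prefoldin, which hands clients to TRiC, and the tubulin cofactors did not follow TRiC as a list, with 7 of 15 higher and 8 lower (median -0.07). The members with the largest differences were Tbcc (-0.47), Pdcl3 (0.42) and Tbce (0.39).

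Among 20 other genes of ER folding and the unfolded protein response, 14 were higher in GFPhigh than in GFPlow and 6 lower (median 0.18), and 15 of 20 were lower in GFPmed than in GFPlow (median -0.28, beside -0.03 over all genes). The oxidase Ero1l was at 28.3, 23.1 and 15.9 UPM, the BiP cofactor Sdf2l1 at 21.8, 13.9 and 33.03, and the lectin chaperone Canx at 119.1, 114.2 and 166.1. Of 10 genes of mitochondrial proteolysis and import, 7 were higher in GFPhigh than in GFPlow (median 0.06), led by Pam16 (0.48), Clpp (0.48) and Lonp1 (0.37). Immediate early genes, which can also mark stress during tissue dissociation, were split, 8 higher and 10 lower of 18 (median -0.11). Dusp1 (1.07), Egr1 (1.06) and Nfkbiz (0.96) led that list, and both Dusp1 and Egr1 are also TCR-induced.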

How the data were processed

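For each cell and gene the authors deposited a raw UMI count, from inDrops libraries read on a NextSeq500, per the labels' protocols. TopHat2, SAMtools and mm10 were named in the submitters' processing notes. Versions, annotation and the UMI rule are not given in the sources used here. All 6106 columns matched a labelled cell and 0 were unused.

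Only cells of at least 500 UMIs entered, no doublets were removed, and UMIs were summed per bin and scaled to 1000000. Ratios had 0.5 UMI added to each count. Intervals are exact Poisson (levels), conditional binomial (ratios) or Clopper-Pearson (shares) at 95%, treat UMIs as independent and cover counting error only. A count of 0 was given a limit of 3 counts per bin. With 1 library per bin there was no test, and "past" a fold means 1.5-fold. Intervals were tested on counts simulated with counting error alone, so that test does not cover the larger spread between cells. Members, lists and gates were chosen with earlier results of these data known. The ER stress element, the ER and mitochondrial groups and the alternatives named as added were chosen after seeing the values.

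Named genes were the main HSP genes and TRiC subunits, the 6 members with most UMIs per family, members past 1.5-fold with at least 100 UMIs, and per list the 3 largest differences of GFPhigh over GFPlow with at least 100 UMIs. Gene positions came from GENCODE M21 (mm10) and promoters from RefSeq (GRCm38.p6). Python 3.11.15, scipy 1.17.1, edgeR 4.0.16 and DESeq2 1.42.0 were used, the last 2 for scaling alternatives only.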

Additional observations from a re-analysis of the deposited data

How the results depend on the processing

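Of 390 family ratios under the alternatives, 332 moved by less than their counting interval and kept their sign where it was clear, 56 moved by more, and 2 reversed. For ratios of named genes these numbers were 684, 34 and 2. The reversals were all members, GFPmed over GFPlow, at 0.017 with a total without ribosomal protein genes; the other Hsp symbols, GFPmed over GFPlow, at 0.044 after thinning; Cct2, GFPhigh over GFPlow, at -0.0042 in cells of 1000 to under 2000 UMIs; and Hsp90aa1, GFPmed over GFPlow, at -0.012 after thinning. Each cause was not tested. Leaving out cells with shared barcodes, counting all cells, adding 1 UMI to each count or leaving out the cell with most UMIs of a family in each bin moved no family ratio past its interval.

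GFPhigh over GFPmed under TMM and DESeq2 scaling was 0.17 and 0.17 for all members, 0.17 and 0.18 for HSP90, 0.22 and 0.23 for HSP70, 0.24 and 0.24 for TRiC and -0.0084 and -0.0061 for DNAJC, with 4 members lower under each. GFPhigh over GFPlow was 0.14 for all members under both, and GFPmed over GFPlow was -0.028 for all members under TMM. A total without ribosomal protein genes gave GFPmed over GFPlow of -0.032 for DNAJC, 0.018 for HSP70, 0.063 for HSP90 and 0.11 for TRiC, with 2 members lower, and GFPhigh over GFPmed of 0.18 for all members and 0.18 for HSP90.

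Thinning to 500 UMIs gave GFPhigh over GFPlow of 0.12 (all members), 0.14 (HSP90), 0.26 (HSP60 and HSP10) and -0.29 (HSP110), GFPmed over GFPlow of -0.10 (all members), -0.093 (HSP90) and -0.62 (HSP110), and GFPhigh over GFPmed of 0.20 for HSP60 and HSP10, with 3 members higher and 4 lower. Equal weight per cell gave GFPhigh over GFPlow of 0.11 (all members), 0.094 (HSP90) and 0.34 (HSP60 and HSP10) and GFPhigh over GFPmed of 0.20, 0.17 and 0.24. It gave 8, 7 and 4 members lower for GFPhigh over GFPlow, GFPmed over GFPlow and GFPhigh over GFPmed. Cells with at least 1000 UMIs gave 0.24 and 0.28 (all members) and 0.33 and 0.33 (HSP90) for GFPhigh over GFPlow and over GFPmed.

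Without cells of 2000 or more UMIs (added after seeing the data), GFPhigh over GFPlow was 0.090 (all members), 0.084 (HSP90), 0.17 (HSP70), 0.25 (HSP60 and HSP10) and -0.27 (HSP110), with 4 members higher. GFPmed over GFPlow was -0.097 (all members), -0.094 (HSP90) and -0.62 (HSP110), with 7 lower. GFPhigh over GFPmed was 0.19, 0.18, 0.22 and 0.20 for all members, HSP90, HSP70, and HSP60 and HSP10. In cells of 1000 to under 2000 UMIs only (also added later), GFPhigh over GFPlow was 0.13, 0.17 and 0.26 for all members, HSP90, and HSP60 and HSP10, and 0.25 for TRiC, with 2 members lower. There GFPmed over GFPlow was 0.014 for HSP60 and HSP10, and GFPhigh over GFPmed was 0.21 for all members and 0.24 for HSP60 and HSP10, with 0 lower.

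Without cells holding other lineage markers, 7 and 4 members were lower in GFPhigh than in GFPlow and GFPmed. With a threshold of 0.32 in place of 0.58 on the log2 scale, 19 were higher and 9 lower (GFPhigh over GFPlow), 6 and 14 (GFPmed over GFPlow), and 16 and 6 (GFPhigh over GFPmed). A minimum of 1 UMI gave 8 lower in GFPhigh than in GFPlow, 10 higher in GFPmed than in GFPlow and 8 lower in GFPhigh than in GFPmed, and a minimum of 100 UMIs gave 3 and 1, 0, and 3 and 0. No paired analysis was possible because each bin is 1 library. Counting error was the only error measured, because replicate error cannot be estimated from 1 library per bin. Genes under 100 UMIs show a direction only where it is large.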
